A study of Mus musculus with 16 samples.

Results

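A set of 10 genes of oxysterol synthesis, oxysterol sensing and cholesterol efflux was followed through cultured mouse articular chondrocytes, the cells that build and maintain joint cartilage. They were chosen by name: the oxysterol enzymes Ch25h and Cyp7b1, the nuclear receptors Rora, Nr1h3 and Nr1h2, and the efflux genes Abca1, Abcg1 and Apoe. Also chosen were the lipoprotein receptor gene Scarb1 and Mylip, whose product limits lipoprotein uptake. All 10 were among the 55450 genes listed in the deposited tables and among the 12976 tested for differences.

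The 16 RNA-sequencing libraries, 4 per group, came from primary chondrocytes kept at 3% oxygen in medium with 10% serum. In the bleomycin group, cells received hyaluronidase at 4 U/mL for 4 h, then bleomycin, a drug that breaks DNA, at 50 µg/mL for 24 h, and fresh medium for 5 days. The doxorubicin group received doxorubicin, a drug that damages DNA through topoisomerase II, at 50 nM for 5 days with medium renewed every 48 h. The IL-1β group received interleukin-1 beta, an inflammatory cytokine of arthritic joints, for 24 h at a dose of 1 ng/mL. The vehicle group received PBS in the same volume for 24 h, a shorter exposure than the 5 days of doxorubicin. By the series' design text, bleomycin and doxorubicin served to induce senescence and IL-1β served as an acute inflammatory comparison. The labels do not say whether the vehicle cells also received hyaluronidase or were kept for the 5 days. The drug groups and their vehicle may thus differ in culture time, and that cannot be told apart from the drugs. Strain, sex and age of the mice were not among the labels, and neither was whether the 4 libraries of a group came from separate cultures or animals. The p-values therefore measure the spread between these libraries, which may be technical.

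Cells turn excess cholesterol into oxysterols, oxidised forms that act as signals. Ch25h encodes cholesterol 25-hydroxylase, which makes 25-hydroxycholesterol, and Cyp7b1 encodes the oxysterol 7-alpha-hydroxylase that acts on it. Oxysterols bind the liver X receptors, LXR-alpha (Nr1h3) and LXR-beta (Nr1h2), which switch on the efflux genes Abca1, Abcg1 and Apoe and Mylip, whose product limits lipoprotein uptake. In mouse cartilage the 2 enzymes have been studied together with the receptor RORα (Rora) as a cholesterol pathway in osteoarthritis.

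The chondrocyte label held in the markers. The summed FPKM (fragments per length of gene as a share of the library, the unit of the authors' tables) of 13 chondrocyte genes was 9980 to 13327 in bleomycin libraries, 10272 to 13468 in doxorubicin libraries and 5873 to 6281 in IL-1β libraries, against 13274 to 17771 in vehicle libraries. Depth, estimated from the values, came to 15.99 to 22.07 M fragments a library (M, mega), and 12014 to 12481 genes reached 1 FPKM. FPKM is a share of a library, and the IL-1β libraries stood apart in how that share was spent. One acute-phase gene, Saa3, took 12.0% to 14.4% of their FPKM sum, and the top gene of any other library took at most 2.51%. The sums were 521294 to 559190 in IL-1β libraries and 405159 to 423830 in the other libraries. A share of the FPKM sum is not a share of fragments. In bulk RNA, fewer cells of a type and less RNA per cell cannot be told apart.

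Of the 10 genes, Ch25h and Cyp7b1 rose most under IL-1β, and there Abcg1 fell and Abca1 did not pass the test. Abca1, Abcg1 and Apoe rose under both bleomycin and doxorubicin, and Cyp7b1 passed under neither. Rora and Nr1h2 rose in all 3 treatments. Against vehicle, 6 of the 10 genes passed an adjusted p of 0.05 under bleomycin, where 46.9% of all tested genes did. Under doxorubicin 9 of 10 passed, against 48.3% of all tested genes, and under IL-1β 9 of 10, against 43%. By direction, 5 genes were higher and 1 lower under bleomycin, where 27.9% of all tested genes were called higher and 19% lower. Under doxorubicin 8 were higher and 1 lower, beside 25.4% and 22.8% of all tested genes. Under IL-1β 7 were higher and 2 lower, beside 24.5% and 18.4%. The median log2 difference of the 10 genes was 0.37 under bleomycin, 0.46 under doxorubicin and 0.68 under IL-1β, where the medians of all tested genes were 0.06, 0.02 and 0.03.

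The 3 comparisons share the 4 vehicle libraries, so their results are not independent of each other. The split into higher and lower depended on the scaling for all genes: 59.5% of the calls under bleomycin were higher as deposited, 47.7% after median-of-ratios scaling and 48.3% after quantile normalization. For IL-1β these shares were 57.1%, 48.4% and 44.0%. Each of the 10 genes that passed against vehicle kept its direction and its call under both scalings. Ch25h and Abcg1 were under 1 FPKM in every vehicle library. They entered the test only through other groups, so their passing the filter says nothing about them.

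**Figure D1:**
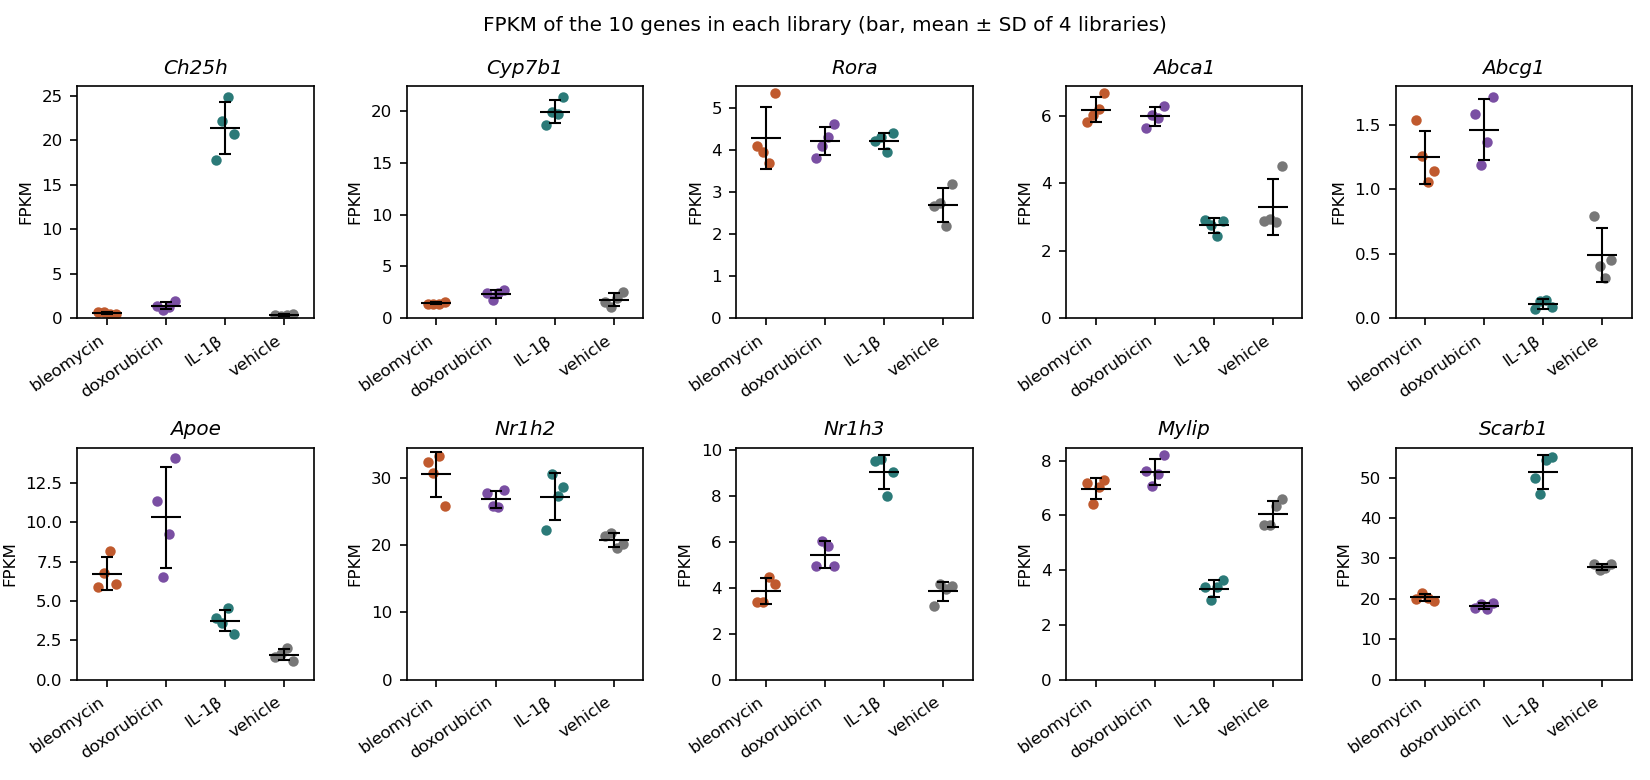
FPKM (y axis, linear, own scale per panel) of each of the 10 genes in the 16 libraries; points are libraries and the bar is the mean ± SD of 4. Ch25h and Cyp7b1 stand far above the other groups in IL-1β libraries, where they averaged 21.4 and 20.0 FPKM, and Abca1 stands at 5.63 to 6.67 FPKM in all 8 bleomycin and doxorubicin libraries.

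Among the genes with a RefSeq promoter entry, Ch25h and Abca1 are shown because Ch25h had the largest rise under IL-1β, while Abca1 rose under both drugs and did not pass under IL-1β. Each window is the 250 bases before the RefSeq start, in assembly GRCm38.p6, read 5′ to 3′ on the minus strand, at chr19:34475149-34475398 for Ch25h and chr4:53159896-53160145 for Abca1. Capitals mark motif matches. In Ch25h they are a TATA box (TATAAA) and a cAMP response element (CRE, TGACGTCA), the palindrome bound by factors of the CREB and ATF family. In Abca1 they are an E-box (CACGTG), a relaxed DR4 (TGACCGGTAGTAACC, on the opposite strand) and a TATA box.
Ch25h: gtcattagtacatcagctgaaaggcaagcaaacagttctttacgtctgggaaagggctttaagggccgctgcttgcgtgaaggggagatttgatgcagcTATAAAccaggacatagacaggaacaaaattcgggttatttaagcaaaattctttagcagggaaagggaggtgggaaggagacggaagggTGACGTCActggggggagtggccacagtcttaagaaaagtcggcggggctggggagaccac
Abca1: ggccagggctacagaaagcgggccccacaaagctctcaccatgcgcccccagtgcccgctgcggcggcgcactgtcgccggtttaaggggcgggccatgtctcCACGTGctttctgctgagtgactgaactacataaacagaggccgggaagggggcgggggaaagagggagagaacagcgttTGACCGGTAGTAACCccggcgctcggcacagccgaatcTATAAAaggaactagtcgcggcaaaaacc
The CRE of Ch25h spans bases -61 to -54 from the start, and 1.56% of 32536 promoter windows of the same length hold one. The TATA box letters span bases -151 to -146 in Ch25h and -29 to -24 in Abca1. The relaxed DR4 of Abca1 spans bases -67 to -53. DR4, a direct repeat with 4 bases between its copies, is the site type that LXR binds with its partner RXR. The relaxed letters searched, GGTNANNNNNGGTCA on either strand, were chosen after the Abca1 window had been read, and 0.178% of windows hold them. The strict form, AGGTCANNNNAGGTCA, is in 0.0154% of windows. E-boxes are in 6.04% and TATA boxes in 12.3%, and these motifs were counted on both strands. In all, 7 of the 10 genes had entries, with 10 windows. None of the 10 windows held the strict DR4, the ROR element core TAGGTCA (2.24% of windows), the kappa B site GGGANTTTCC (0.36%) or the interferon response core GAAANNGAAA (2.98%). A match is a run of letters and not a measured binding site.

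Ch25h rose steeply under IL-1β. The gene is ENSMUSG00000050370.5, a single exon on the minus strand at chr19:34473778-34475164. Its level was 17.8, 22.2, 24.9 and 20.7 FPKM in the 4 IL-1β libraries, against 0.375, 0.254, 0.320 and 0.464 FPKM in vehicle libraries. The groups were far apart, with a ratio of mean FPKM of 60.5. On the log2(FPKM + 1) scale, where fold changes of low genes are understated, the difference was 4.04 ± 0.12 (SE, n = 4 libraries per group, adjusted p = 5.46e-13). That was the 22nd highest of the 12976 tested genes. An estimated 417 to 599 fragments lay behind each IL-1β value and 5.73 to 11.6 behind each vehicle value, so the ratio is only as firm as these few vehicle fragments.

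Doxorubicin raised Ch25h to a much lower level. The values were 1.40, 0.895, 1.28 and 1.87 FPKM in doxorubicin libraries, against 0.254 to 0.464 FPKM in vehicle libraries, with no overlap. The log2 difference was 0.79 ± 0.12 (adjusted p = 5.55e-05), or 1.67 with a pseudocount of 0.1 FPKM in place of 1. Under bleomycin Ch25h was 0.724, 0.660, 0.506 and 0.419 FPKM, overlapping with vehicle. That difference of 0.22 missed the threshold (adjusted p = 0.156) and passed it with a pseudocount of 0.1 (0.58, adjusted p = 0.0350). With quantile normalization it was -0.00131 (adjusted p = 0.995). Between the drugs, Ch25h was lower in bleomycin than in doxorubicin libraries by a log2 difference of -0.57 ± 0.12 (adjusted p = 0.00677). The order of levels was thus IL-1β, doxorubicin, then bleomycin and vehicle, and the last pair was not separated.

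Cyp7b1 also rose under IL-1β, and not beyond the threshold under either drug. It is ENSMUSG00000039519.6 on the minus strand at chr3:18071950-18243338. The IL-1β libraries had 18.7, 20.0, 19.8 and 21.4 FPKM, against 1.58, 1.08, 1.97 and 2.49 FPKM in vehicle libraries. The ratio of means was 11.2 and the log2 difference 2.94 ± 0.13 (adjusted p = 3.28e-11), the 47th highest of all tested genes. IL-1β values were tight and vehicle values loose: the SD was 5.66% of the mean in IL-1β libraries and 33.6% in vehicle libraries.

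In bleomycin libraries Cyp7b1 was 1.37, 1.36, 1.37 and 1.59 FPKM, and in doxorubicin libraries 2.43, 1.73, 2.44 and 2.71 FPKM. Both groups overlapped with vehicle. The log2 differences from vehicle were -0.18 (95% interval -0.45 to 0.10, adjusted p = 0.285) for bleomycin and 0.28 (0.00058 to 0.55, adjusted p = 0.0913) for doxorubicin. Each passed without some single libraries: without vehicle replicate 2 the bleomycin difference was -0.31 (adjusted p = 0.0383), and without doxorubicin replicate 2 or vehicle replicate 4 the doxorubicin difference was 0.37 (adjusted p = 0.0314) or 0.39 (adjusted p = 0.0139). With the replicate number as a block in the fit, the doxorubicin difference of 0.28 also passed (adjusted p = 0.0364). Bleomycin libraries were lower than doxorubicin libraries by -0.45 ± 0.13 (adjusted p = 0.0366), a call lost on leaving out any 1 of 6 libraries: bleomycin replicate 1, 2 or 3 (adjusted p = 0.0850, 0.0840 and 0.0817) or doxorubicin replicate 1, 3 or 4 (0.0810, 0.0790 and 0.105).

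The pair of enzymes had a near-common profile over the 16 libraries. Their Pearson correlation on the log2 scale was 0.987, and Cyp7b1 ranked 28th of the tested genes in likeness to Ch25h. The 3 genes most like Ch25h were Orm1 and Saa1, which encode acute-phase proteins, and Il13ra2, the decoy receptor of interleukin-13 (r = 0.996, 0.994 and 0.994). Those most like Cyp7b1 were Zc3h12a, which encodes an RNase that limits inflammatory transcripts, Nos2, the inducible nitric oxide synthase, and Ccl20, a chemokine (r = 0.994, 0.993 and 0.992). These correlations describe 4 groups of 4 libraries, of which 1 stands apart, and carry no test.

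Rora rose in all 3 treatments, by 0.50 to 0.51 on the log2 scale. It is ENSMUSG00000032238.17, a long gene on the plus strand at chr9:68653786-69388246, and encodes a nuclear receptor that activates genes with ROR elements, among them clock genes. Bleomycin libraries had 4.11, 3.96, 3.70 and 5.36 FPKM, doxorubicin libraries 3.82, 4.10, 4.32 and 4.63 FPKM, and IL-1β libraries 4.22, 4.30, 3.95 and 4.40 FPKM, against 2.68, 2.73, 2.19 and 3.18 FPKM in vehicle libraries. Every treated library was above every vehicle library. The log2 differences were 0.51 ± 0.10 for bleomycin (adjusted p = 0.000501), 0.50 ± 0.10 for doxorubicin (adjusted p = 0.000540) and 0.50 ± 0.10 for IL-1β (adjusted p = 0.000586). The treated groups were not separated from each other, with differences of 0.011 between bleomycin and doxorubicin (95% interval -0.20 to 0.22), 0.0078 between bleomycin and IL-1β (-0.20 to 0.22) and -0.0028 between doxorubicin and IL-1β (-0.21 to 0.21).

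The 3 genes most like Rora over the 16 libraries were Angpt1, the angiopoietin-1 gene (r = 0.977), Ifi202b, an interferon-inducible gene (r = 0.936), and Appl2, an endosomal adaptor gene (r = 0.924). Ch25h and Cyp7b1 were not near it, with r of 0.387 and 0.315. Among 9 other RORs, REV-ERB repressors and clock genes, 8 were tested, and their median log2 difference was -0.13 under bleomycin, -0.04 under doxorubicin and 0.19 under IL-1β. Under bleomycin 2 were higher and 4 lower, under doxorubicin 2 were higher and 3 lower, and under IL-1β 4 were higher and the other 4 did not pass. Without vehicle replicate 3, 2 of these 8 passed under IL-1β. With all libraries, 46.9%, 48.3% and 43% of all tested genes passed under bleomycin, doxorubicin and IL-1β. The REV-ERB genes Nr1d1 and Nr1d2, whose products repress at ROR elements, rose under the drugs. Nr1d1 averaged 8.99 ± 0.43 FPKM in bleomycin and 12.1 ± 0.6 FPKM in doxorubicin libraries, against 4.10 ± 0.11 FPKM in vehicle libraries (SD, n = 4 each), for log2 differences of 0.97 (adjusted p = 1.53e-08) and 1.36 (adjusted p = 2.53e-10). Nr1d2 rose by 0.63 under bleomycin and 0.79 under doxorubicin (adjusted p = 8.58e-06 and 5.74e-07). Cry1 and Npas2, both clock genes, fell under bleomycin by 0.75 (adjusted p = 1.56e-06) and 0.72 (adjusted p = 0.000168). Under doxorubicin they fell by 0.57 (adjusted p = 2.14e-05) and 0.93 (adjusted p = 1.05e-05). Under IL-1β, Nfil3, Npas2, Arntl and Cry1 rose by 0.86, 0.49, 0.30 and 0.23 (adjusted p = 7.25e-07, 0.00390, 0.0245 and 0.0304).

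The LXR genes differed from each other in how they responded. Nr1h3, the LXR-alpha gene, is ENSMUSG00000002108.10 on the minus strand at chr2:91184061-91202834. It had 9.55, 9.60, 8.01 and 9.06 FPKM in IL-1β libraries and 4.93, 6.06, 5.81 and 4.96 FPKM in doxorubicin libraries, against 3.22, 4.16, 3.93 and 4.06 FPKM in vehicle libraries. Both groups lay wholly above vehicle, by 1.06 ± 0.10 for IL-1β (adjusted p = 2.09e-07) and 0.41 ± 0.10 for doxorubicin (adjusted p = 0.00228). The bleomycin libraries, at 3.36, 3.40, 4.49 and 4.18 FPKM, overlapped with vehicle and differed from it by 0.0027 (95% interval -0.20 to 0.21, adjusted p = 0.984). Bleomycin was lower than doxorubicin by -0.41 ± 0.10 (adjusted p = 0.0136), so the order was IL-1β, doxorubicin, then bleomycin and vehicle.

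Nr1h2, the LXR-beta gene, is ENSMUSG00000060601.13 on the minus strand at chr7:44549616-44553951. Per length it was the more abundant of the LXR genes in every group, at 20.7 ± 1.0 FPKM in vehicle libraries, where Nr1h3 was at 3.84 ± 0.43 FPKM. It had 32.3, 30.7, 33.2 and 25.8 FPKM in bleomycin libraries, 27.7, 25.9, 25.7 and 28.1 FPKM in doxorubicin libraries and 22.3, 30.5, 27.4 and 28.6 FPKM in IL-1β libraries, against 21.4, 21.7, 19.5 and 20.2 FPKM in vehicle libraries. All 12 treated libraries were above all vehicle libraries, although IL-1β replicate 1 was close to them. The log2 differences were 0.53 ± 0.09 for bleomycin (adjusted p = 0.000145), 0.36 ± 0.09 for doxorubicin (adjusted p = 0.00338) and 0.37 ± 0.09 for IL-1β (adjusted p = 0.00319).

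A list of 11 nuclear receptor partner genes held RXR and coregulator genes, and also separate receptor genes such as Ppard and Pparg. Of the 11, 8 were tested. Under bleomycin 2 were higher and the other 6 did not pass, under doxorubicin 3 were higher and 1 lower, and under IL-1β 2 were higher and 1 lower. Of all tested genes, 46.9%, 48.3% and 43% passed in these comparisons. Without vehicle replicate 3 or 4, 2 partner genes passed under doxorubicin. The medians of 0.12, 0.10 and 0.05 were near those of all genes. Rxra, which encodes the RXR subunit of LXR pairs, was 22.5 ± 0.6 FPKM in bleomycin libraries, against 16.4 ± 1.0 FPKM in vehicle libraries, and rose by 0.43 (adjusted p = 2.13e-05). It rose by 0.29 under doxorubicin (adjusted p = 0.000737). Pparg, a lipid-sensing receptor of fat cells, rose in all 3 treatments, by 0.46 under bleomycin (adjusted p = 0.00886), 0.37 under doxorubicin (adjusted p = 0.0271) and 0.77 under IL-1β (adjusted p = 0.000176). The coactivator Ncoa3 fell by 0.50 under doxorubicin (adjusted p = 3.33e-05) and 0.35 under IL-1β (adjusted p = 0.00106). The receptor gene Ppard rose by 0.54 under IL-1β (adjusted p = 0.000180).

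Abca1 encodes the transporter that loads cholesterol onto lipid-poor apolipoproteins. It is ENSMUSG00000015243.4 on the minus strand at chr4:53030787-53159895. It had 5.81, 6.01, 6.21 and 6.67 FPKM in bleomycin libraries and 5.63, 6.02, 5.94 and 6.30 FPKM in doxorubicin libraries, against 2.88, 2.93, 2.83 and 4.52 FPKM in vehicle libraries. Every drug library was above every vehicle library, including vehicle replicate 4, which stood apart from the other 3. The log2 differences were 0.76 ± 0.10 for bleomycin (adjusted p = 1.60e-05) and 0.72 ± 0.10 for doxorubicin (adjusted p = 2.23e-05), and without vehicle replicate 4 they were 0.88 and 0.85. The drugs were not separated from each other (0.04, 95% interval -0.18 to 0.25).

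Under IL-1β, Abca1 was 2.92, 2.77, 2.42 and 2.88 FPKM, within or just below the range of vehicle. The difference of -0.18 (95% interval -0.40 to 0.04) missed the threshold (adjusted p = 0.170) and was -0.05 without vehicle replicate 4 (adjusted p = 0.594). With quantile normalization it was -0.25 and passed (adjusted p = 0.0401). Abca1 was higher in both drug groups than in IL-1β libraries, by 0.94 ± 0.10 for bleomycin (adjusted p = 1.07e-06) and 0.90 ± 0.10 for doxorubicin (adjusted p = 1.59e-06).

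Abcg1, whose product passes cholesterol to mature high-density lipoprotein, had opposite directions in the drug and cytokine groups. It is ENSMUSG00000024030.7 on the plus strand at chr17:31057675-31117988, and its levels were low throughout. Bleomycin libraries had 1.53, 1.26, 1.05 and 1.14 FPKM, doxorubicin libraries 1.58, 1.19, 1.36 and 1.72 FPKM and IL-1β libraries 0.0663, 0.135, 0.144 and 0.0822 FPKM, against 0.789, 0.406, 0.310 and 0.447 FPKM in vehicle libraries. Every drug library was above, and every IL-1β library below, all vehicle libraries. The log2 differences were 0.60 ± 0.11 for bleomycin (adjusted p = 0.000257), 0.73 ± 0.11 for doxorubicin (adjusted p = 3.23e-05) and -0.42 ± 0.11 for IL-1β (adjusted p = 0.00472). With a pseudocount of 0.1 FPKM they were 1.24, 1.46 and -1.47, so the sizes rest on the pseudocount and the directions and calls do not.

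Apoe, the apolipoprotein that carries effluxed cholesterol, rose most of the 10 under both drugs. It is ENSMUSG00000002985.16 on the minus strand at chr7:19696109-19699188. Doxorubicin libraries had 11.4, 6.51, 9.25 and 14.1 FPKM, bleomycin libraries 5.88, 6.78, 8.20 and 6.11 FPKM and IL-1β libraries 3.89, 3.58, 4.56 and 2.93 FPKM, against 1.46, 1.63, 2.01 and 1.17 FPKM in vehicle libraries. The groups overlapped with vehicle in no case, and doxorubicin replicate 2 lay in the bleomycin range. The log2 differences were 2.10 ± 0.18 for doxorubicin (adjusted p = 8.10e-08), the 58th highest of all genes, and 1.59 ± 0.18 for bleomycin (adjusted p = 2.29e-06), the 77th highest. IL-1β raised it by 0.88 ± 0.18 (adjusted p = 0.000702). The difference between bleomycin and doxorubicin, -0.51, missed the threshold (adjusted p = 0.0811) and passed without doxorubicin replicate 2 (-0.69, adjusted p = 0.0114).

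Scarb1 was the 1 gene of the set that fell under both drugs and rose under IL-1β. It encodes SR-BI, the receptor for high-density lipoprotein that moves cholesterol in both directions, and is ENSMUSG00000037936.15 on the minus strand at chr5:125277087-125341094. It had 20.0, 21.5, 20.3 and 19.5 FPKM in bleomycin libraries, 17.8, 18.6, 17.4 and 19.1 FPKM in doxorubicin libraries and 49.8, 46.0, 54.4 and 55.0 FPKM in IL-1β libraries, against 28.5, 27.1, 27.5 and 28.5 FPKM in vehicle libraries. No treated group overlapped with vehicle. The log2 differences were -0.44 ± 0.06 for bleomycin (adjusted p = 1.55e-05), -0.59 ± 0.06 for doxorubicin (adjusted p = 5.26e-07) and 0.85 ± 0.06 for IL-1β (adjusted p = 6.26e-09).

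Mylip went the other way. It encodes IDOL, a ubiquitin ligase that limits lipoprotein uptake, and is ENSMUSG00000038175.10 on the plus strand at chr13:45389742-45412022. It had 3.38, 2.90, 3.39 and 3.62 FPKM in IL-1β libraries and 7.61, 7.07, 7.51 and 8.21 FPKM in doxorubicin libraries, against 5.65, 5.65, 6.35 and 6.58 FPKM in vehicle libraries. It fell under IL-1β by 0.71 ± 0.07 (adjusted p = 7.31e-07) and rose under doxorubicin by 0.29 ± 0.07 (adjusted p = 0.00389), with no overlap in either case. Bleomycin libraries, at 7.19, 6.41, 7.04 and 7.29 FPKM, overlapped with vehicle, and the difference of 0.18 ± 0.07 lay at the threshold (adjusted p = 0.0548). It passed without bleomycin replicate 2 (0.21, adjusted p = 0.0370), without IL-1β replicate 2 (adjusted p = 0.0426) or without vehicle replicate 4 (0.21, adjusted p = 0.0363). With the replicate number as a block in the fit it also passed (adjusted p = 0.0185).

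**Figure D2:**
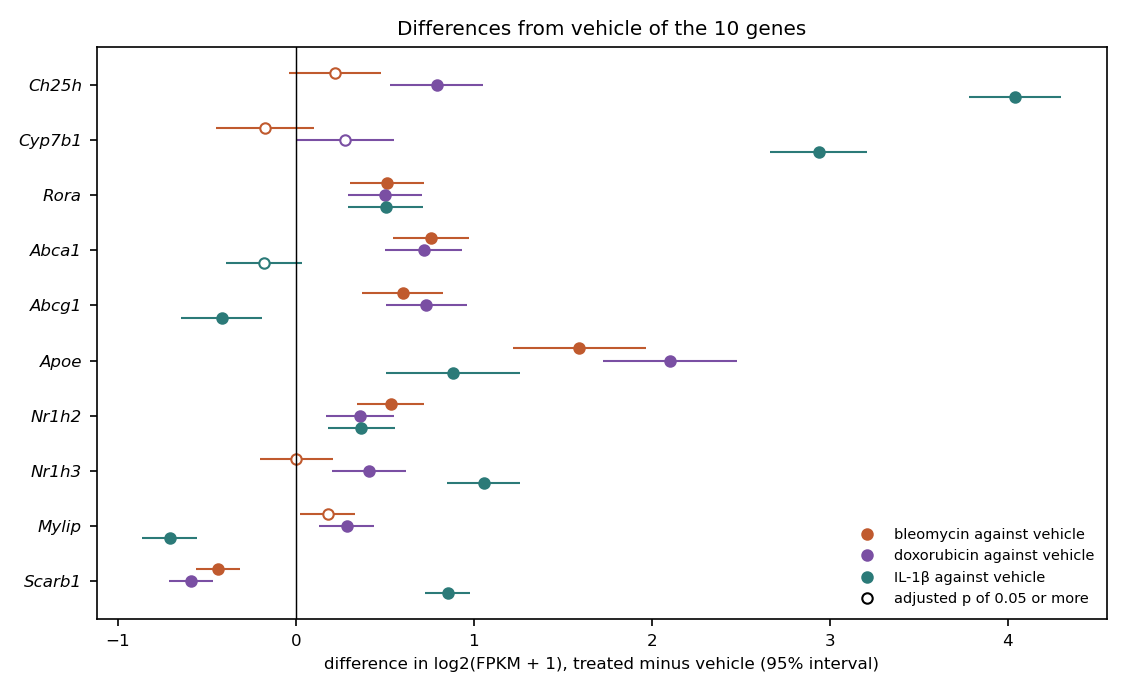
Difference in log2(FPKM + 1), treated minus vehicle (x axis), with 95% intervals, for the 10 genes under bleomycin, doxorubicin and IL-1β; open points have an adjusted p of 0.05 or more. Abcg1 and Mylip lie right of 0 for the drugs and left of 0 for IL-1β, and Scarb1 the reverse.

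The treatments were also set against each other directly. Of the 10, 3 passed between bleomycin and doxorubicin, where 10% of all tested genes did: Ch25h, Cyp7b1 and Nr1h3, each lower in bleomycin libraries. The Cyp7b1 call was lost with no filter (adjusted p = 0.0879) and on leaving out some single libraries. Scarb1 did not overlap between the drugs, yet its difference of 0.15 missed the threshold (adjusted p = 0.119). Between bleomycin and IL-1β, 8 of 10 passed, against 52.8% of all tested genes, with Abca1, Abcg1, Apoe and Mylip higher in bleomycin and Ch25h, Cyp7b1, Nr1h3 and Scarb1 lower. Between doxorubicin and IL-1β the 8 that passed and their directions were as in that comparison, against 54.2% of all tested genes. Rora and Nr1h2 passed in none of these 3 comparisons. From high to low, the levels of Abca1 ran from both drugs to vehicle and IL-1β, those of Abcg1 from both drugs to vehicle and then IL-1β, and those of Apoe from both drugs to IL-1β and then vehicle. Scarb1 ran from IL-1β to vehicle and then both drugs. Mylip ran from both drugs to vehicle and then IL-1β, with bleomycin and vehicle not separated.

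**Figure D3:**
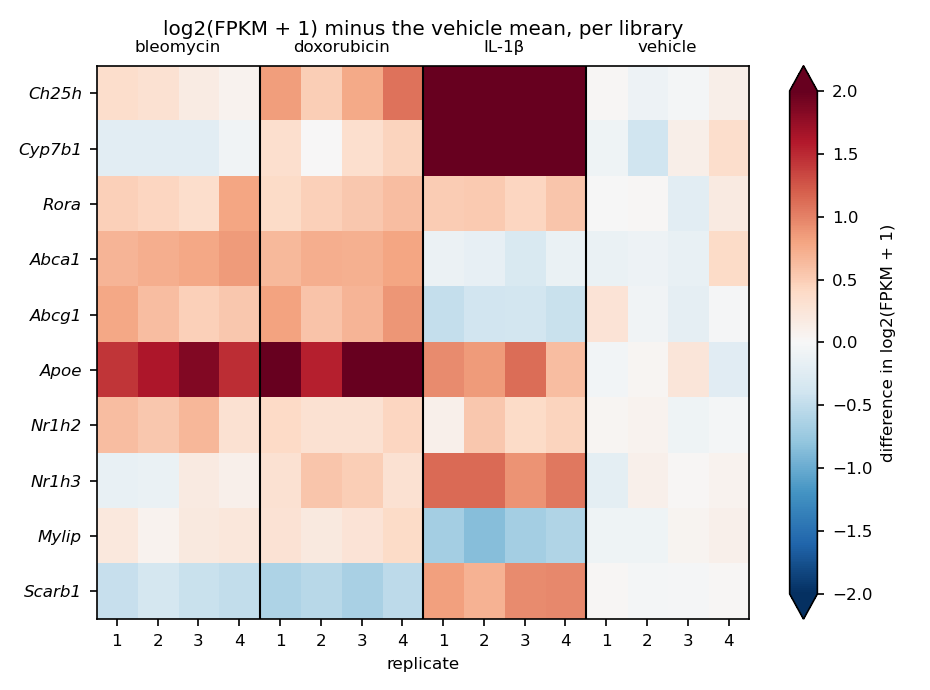
log2(FPKM + 1) of each gene (rows) in each library (columns, replicates 1 to 4 of each group) minus the gene's mean over the 4 vehicle libraries; colours stop at 2 and -2. IL-1β columns are past the top of the scale for Ch25h and Cyp7b1 and blue for Abcg1 and Mylip, and the bleomycin and doxorubicin columns are red for Abca1, Abcg1 and Apoe in all 8 libraries.

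Other genes of the pathway were counted from lists. Of 12 further oxysterol enzyme and receptor genes, 7 were tested. Under each drug 5 were higher and the other 2 did not pass, and under IL-1β 3 were higher and 1 lower, with medians of 0.49, 0.47 and 0.09 for bleomycin, doxorubicin and IL-1β. Of all tested genes, 46.9%, 48.3% and 43% passed. The count under doxorubicin was 3 without doxorubicin replicate 2 and 2 without doxorubicin replicate 4. Gpr183, the receptor for the product of Ch25h and Cyp7b1 acting together, was not among the tested genes because it was too low. Hsd3b7, the next enzyme after the 7-alpha-hydroxylases, rose in all 3 treatments. It averaged 11.8 ± 1.3 FPKM in bleomycin, 14.2 ± 1.0 in doxorubicin and 12.0 ± 0.9 in IL-1β libraries, against 5.74 ± 0.64 FPKM in vehicle libraries (SD, n = 4 each; adjusted p = 4.78e-07, 2.35e-08 and 2.55e-07). Cyp27a1, the mitochondrial sterol 27-hydroxylase, rose by 0.60 under bleomycin (adjusted p = 0.00385) and 0.49 under doxorubicin (adjusted p = 0.0132), and its difference under IL-1β was -0.32 (adjusted p = 0.0980). Cyp46a1, the 24-hydroxylase known from neurons, rose by 0.59 under bleomycin (adjusted p = 0.00286), 0.39 under doxorubicin (adjusted p = 0.0349) and 0.51 under IL-1β (adjusted p = 0.00841). Hsd11b1, which reduces 7-ketocholesterol as well as cortisone, rose by 0.86 under doxorubicin (adjusted p = 0.000169) and 0.77 under IL-1β (adjusted p = 0.000484). Of the 7, Cyp46a1 and Sult2b1 were under 1 FPKM in every vehicle library and entered the test only through other groups. Both were among the 5 higher under each drug. Sult2b1 was also under 1 FPKM in every IL-1β library, and its own differences of 0.49, 0.47 and 0.09 are the 3 medians.

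Further LXR targets did not move as one. Of 15, 12 were tested: 6 were higher and 5 lower under each drug, and 3 were higher and 4 lower under IL-1β, with medians of 0.08, -0.02 and -0.0010. Of all tested genes, 46.9%, 48.3% and 43% passed under bleomycin, doxorubicin and IL-1β. Of the 12, 1 was under 1 FPKM in every vehicle library and entered the test only through other groups. Smpdl3a, a phosphodiesterase gene, averaged 34.3 ± 2.3 FPKM in bleomycin, 37.2 ± 1.4 in doxorubicin and 22.6 ± 1.2 in IL-1β libraries, against 10.7 ± 0.6 FPKM in vehicle libraries (adjusted p = 2.30e-11, 1.02e-11 and 1.17e-09). Pltp, the phospholipid transfer protein gene, rose by 1.50 under bleomycin (adjusted p = 6.11e-10), 1.49 under doxorubicin (adjusted p = 4.19e-10) and 0.61 under IL-1β (adjusted p = 8.50e-06). Lpl, the lipoprotein lipase gene, rose by 0.94 under bleomycin (adjusted p = 2.57e-05), 1.77 under doxorubicin (adjusted p = 2.03e-08) and 1.61 under IL-1β (adjusted p = 5.27e-08). Genes of fatty acid synthesis were among those that fell. Scd1, a fatty acid desaturase gene, averaged 22.7 ± 1.4 FPKM in bleomycin libraries, against 50.4 ± 5.6 FPKM in vehicle libraries (adjusted p = 9.61e-08). It also fell under doxorubicin and IL-1β, by 0.73 and 0.51 (adjusted p = 6.57e-06 and 0.000271). Srebf1, which encodes SREBP1, a regulator of fatty acid synthesis, averaged 28.4 ± 1.3 FPKM in IL-1β libraries, against 59.2 ± 8.0 FPKM in vehicle libraries (adjusted p = 1.91e-08). It also fell under bleomycin and doxorubicin, by 0.93 and 0.77 (adjusted p = 1.08e-07 and 6.25e-07).

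Sterol synthesis genes went down with the drugs and up with IL-1β. Of 23 genes, all tested, 1 was higher and 18 lower under bleomycin, 1 higher and 17 lower under doxorubicin, and all 23 were higher under IL-1β, with medians of -0.45, -0.52 and 1.31. The shares of all tested genes that passed were 46.9%, 48.3% and 43%. Of the 23, 1 was under 1 FPKM in every vehicle library and entered the test only through other groups. Fdps, which makes farnesyl diphosphate, fell by 1.06 under bleomycin (adjusted p = 4.37e-07) and 1.25 under doxorubicin (adjusted p = 5.05e-08). Pmvk, a mevalonate pathway kinase, fell by 0.81 under bleomycin (adjusted p = 3.78e-08) and 0.82 under doxorubicin (adjusted p = 1.88e-08). Msmo1, Tm7sf2 and Hsd17b7, late enzymes of the pathway, rose by 1.76, 1.67 and 1.66 under IL-1β (adjusted p = 1.83e-07, 6.26e-08 and 6.32e-10).

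Of 20 cholesterol uptake, transport and storage genes, 18 were tested, with 9 higher and 2 lower under bleomycin, 6 and 4 under doxorubicin, and 11 and 3 under IL-1β, and medians of 0.16, 0.04 and 0.28. Those called in either direction were thus 11, 10 and 14 of 18, where 46.9%, 48.3% and 43% of all tested genes were called. Npc2, which moves cholesterol out of lysosomes, rose in all 3 treatments, by 1.03, 1.32 and 1.28 under bleomycin, doxorubicin and IL-1β (adjusted p = 1.84e-08, 8.31e-10 and 7.16e-10). Cd36, a scavenger receptor gene, was 1.33 ± 0.42 FPKM in bleomycin and 2.77 ± 0.55 FPKM in doxorubicin libraries, against 0.0682 ± 0.0590 FPKM in vehicle libraries (adjusted p = 3.50e-06 and 1.13e-08). It also rose with IL-1β, by 0.37 (adjusted p = 0.0283). Neither vehicle nor IL-1β libraries brought Cd36 to 1 FPKM, so it entered the test only through the drug groups. Under IL-1β, Tspo, an outer mitochondrial membrane protein gene, rose by 1.17 (adjusted p = 4.99e-09) and Stard4, a cytosolic sterol carrier gene, by 0.80 (adjusted p = 3.16e-06). Under bleomycin and doxorubicin Tspo rose by 0.43 and 0.39 (adjusted p = 0.000303 and 0.000634), and Stard4 fell by 0.74 and 0.79 (adjusted p = 8.17e-06 and 3.51e-06).

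**Figure D4:**
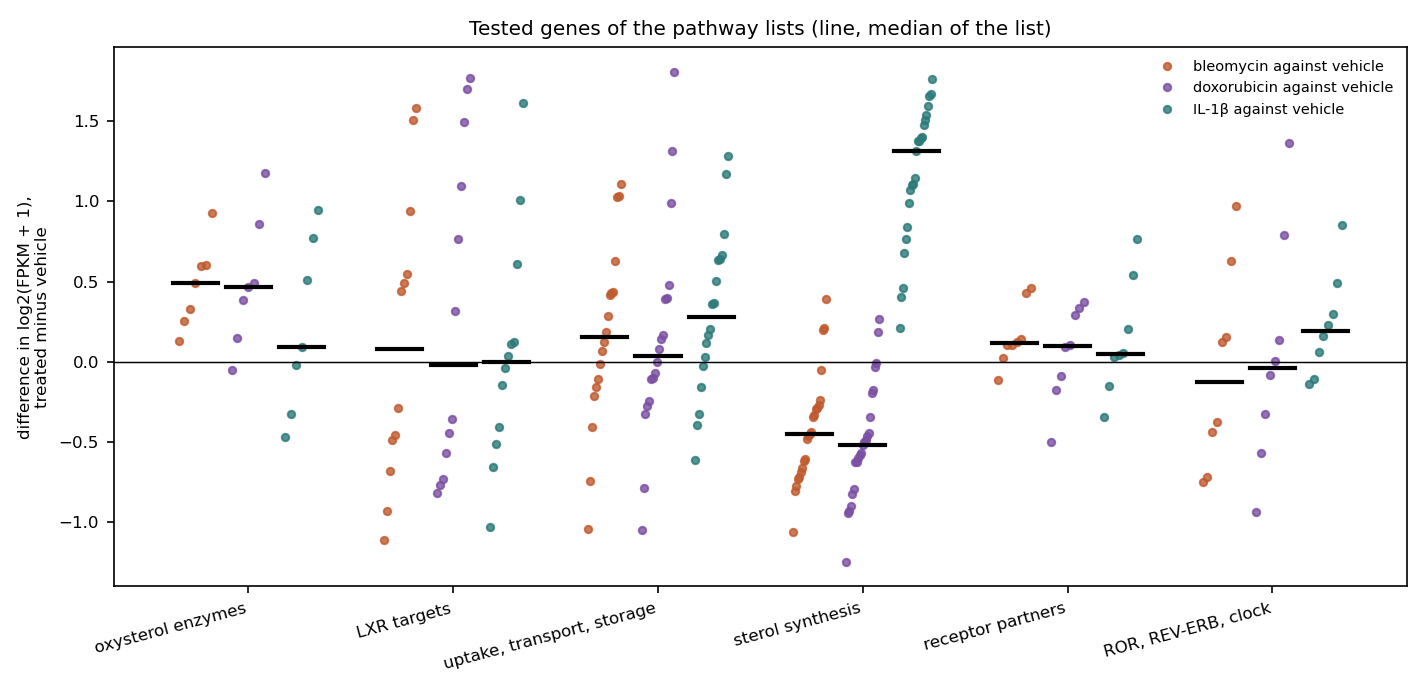
Difference in log2(FPKM + 1), treated minus vehicle (y axis), of each tested gene in 6 pathway lists (x axis) under bleomycin, doxorubicin and IL-1β; points are genes and the black line is the list's median. The sterol synthesis medians lie at -0.45, -0.52 and 1.31, and the LXR target points lie on both sides of 0 in each comparison.

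Catabolic and inflammatory genes of cartilage accompanied the enzymes under IL-1β. Of 8, 7 were higher under IL-1β and the other did not pass, with a median of 2.37. Bleomycin had 3 higher and 2 lower and a median of 0.01, and doxorubicin 3 higher and 1 lower and a median of 0.27. The shares of all tested genes that passed were 46.9% under bleomycin, 48.3% under doxorubicin and 43% under IL-1β. Of the 8, Nos2 and Mmp12 were under 1 FPKM in every vehicle library and entered the test only through other groups. Mmp3, the stromelysin-1 gene, averaged 2799 ± 138 FPKM in IL-1β libraries, 166 ± 68 FPKM in doxorubicin libraries and 27.8 ± 5.8 FPKM in bleomycin libraries, against 16.6 ± 6.5 FPKM in vehicle libraries (adjusted p = 1.93e-12, 2.58e-08 and 0.0178). Nos2 and Il6 rose by 6.84 and 4.01 under IL-1β (adjusted p = 3.55e-14 and 5.37e-11). Under bleomycin, Il6 fell by 1.14 (adjusted p = 0.000102) and Ptgs2, the cyclooxygenase-2 gene, by 0.67 (adjusted p = 0.00212). Ptgs2 fell by 0.72 under doxorubicin (adjusted p = 0.00117) and rose by 0.82 under IL-1β (adjusted p = 0.000441). Adamts5, an aggrecanase gene, and Mmp13, a collagenase gene, rose by 0.97 and 0.94 under doxorubicin (adjusted p = 1.16e-07 and 0.000570) and by 0.58 and 3.10 under IL-1β (adjusted p = 3.67e-05 and 1.33e-09). Under bleomycin Adamts5 rose by 0.40 (adjusted p = 0.000981).

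Macrophages express Ch25h, Apoe, Abca1 and Abcg1, so their markers were read beside these genes. The summed level of 15 macrophage markers was 16.4 to 18.0 FPKM in bleomycin, 19.3 to 24.2 in doxorubicin and 29.1 to 34.8 in IL-1β libraries, against 9.19 to 11.1 FPKM in vehicle libraries. Of the 15, 4 were tested: 3 were higher in each treatment, and 1 was lower under IL-1β. In each treatment the higher ones were Cd68, Lyz2 and Cd14. The shares of all tested genes that passed were 46.9% under bleomycin, 48.3% under doxorubicin and 43% under IL-1β. Cd68 rose by 1.20, 1.04 and 1.89 under bleomycin, doxorubicin and IL-1β (adjusted p = 8.93e-06, 3.26e-05 and 4.02e-08). Of the defining markers, Adgre1 and Marco were at most 0.0192 and 0 FPKM in any library, Ptprc at most 0.0318 FPKM and Itgam at most 0.0384 FPKM. C1qa and Tyrobp reached at most 0.306 and 0.399 FPKM, both in doxorubicin libraries. Csf1r had a median of 0.128 FPKM in bleomycin, 0.545 in doxorubicin and 0.780 in IL-1β libraries, against 0.189 FPKM in vehicle libraries. Its doxorubicin and IL-1β values lay wholly above those of vehicle, and it was too low to be tested.

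Markers of other cells moved too. Of 8 adipocyte markers, 6 were tested, of which 4 were under 1 FPKM in every vehicle library and entered the test only through other groups. All 6 rose under each drug, and 2 rose under IL-1β. Their summed level was 68.2 to 80.3 FPKM in bleomycin, 145 to 194 in doxorubicin and 353 to 390 in IL-1β libraries, against 31.1 to 39.0 FPKM in vehicle libraries, most of it from Fabp4. Adipoq, the adiponectin gene, was 4.06 ± 1.08 FPKM in bleomycin and 13.9 ± 3.0 FPKM in doxorubicin libraries, against 0.104 ± 0.125 FPKM in vehicle libraries. Of 6 synovial fibroblast markers 4 were tested: 3 were higher under bleomycin, all 4 under doxorubicin, and 2 were higher and 1 lower under IL-1β. Their sum was 82.9 to 119 FPKM in bleomycin, 109 to 166 in doxorubicin and 108 to 146 in IL-1β libraries, against 51.1 to 80.3 FPKM in vehicle libraries. Of 8 endothelial markers 2 were tested, and both rose under bleomycin and 1 under each of the other treatments. Their sum was 19.7 to 23.1 FPKM in bleomycin, 18.9 to 22.7 in doxorubicin and 19.2 to 23.4 in IL-1β libraries, against 15.98 to 18.36 FPKM in vehicle libraries, and Pecam1 was at most 0.426 FPKM. Of the 13 chondrocyte markers, 2 were higher and 9 lower under bleomycin, 1 and 8 under doxorubicin, and 1 and 12 under IL-1β. Beside these marker counts, 46.9%, 48.3% and 43% of all tested genes passed under bleomycin, doxorubicin and IL-1β. The part of these marker changes in the results for the 10 genes was not tested.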

How the data were processed

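Messenger RNA was read from 16 libraries (TruSeq Stranded mRNA kit, 1 µg of total RNA, per the labels' protocols). The deposited tables hold FPKM values, computed by the authors. Per the submitters' processing notes, Trimmomatic and STAR were used with build GRCm38. The FPKM tool and its annotation are not given in the sources used here. Gene positions are from GENCODE M21 on GRCm38.

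Depth was estimated from steps between low FPKM values, over a limited search range. Depths above that range were not tested, so the fragment numbers are rough. Only 64.3% to 69.2% of low values came out whole within 0.1 fragments, so reads were not recovered and no count test was run. Low values carry counting error that FPKM does not show.

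Genes that reached 1 FPKM in 4 or more libraries were tested as log2(FPKM + 1) in limma 3.58.1 (R 4.3.3, linear model with a trend in the variance), all 16 libraries sharing 1 estimate of the spread. The 6 pairwise comparisons were each adjusted by Benjamini-Hochberg over 12976 genes, with a threshold of 0.05, two-sided. Fold ratios are of mean FPKM. Python 3.11.15 was used for summaries.

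The 10 genes and all gene lists were chosen with earlier results of these data known. Named genes are the 10 members, the 3 called genes of largest absolute log2 difference per pathway list and comparison with vehicle (2 per marker list), and the 3 genes most correlated with Ch25h, Cyp7b1 and Rora; the counts of every list are given, and not every gene named by the rule is reported here. Adgre1, Marco, Ptprc, Itgam, Csf1r, C1qa, Tyrobp, Pecam1, Saa3, Gpr183, Mmp12 and Sult2b1 were named outside that rule.

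Alternatives were 2 other pseudocounts, no filter or 5 FPKM, median-of-ratios scaling, quantile normalization, fits of only the groups compared, a replicate block, and leaving out each library. Replicate numbers are shared between groups, and nothing in the labels says what they mark.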

Additional observations from a re-analysis of the deposited data

Results flagged for a closer look

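In each of 40 groups of 4 libraries (10 genes in 4 groups), the highest and the lowest library were compared with the others, and 2 groups held a library far from the rest. Chance flags about 1 in 20 such groups. Cyp7b1 was 1.59 FPKM in bleomycin replicate 4, where the other 3 bleomycin libraries lay at 1.36 to 1.37 FPKM. The gap was 0.950 of the group's range, past the 95% critical value of Dixon's test for 4 libraries. The value is within the vehicle range. Abca1 was 4.52 FPKM in vehicle replicate 4, where the other 3 vehicle libraries lay at 2.83 to 2.93 FPKM, a gap of 0.943 of the range. The bleomycin and doxorubicin libraries lie above that library as well.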

How the results depend on the processing

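Over 1428 recomputed differences of the 10 genes, 1381 kept direction and side of the threshold, 12 gained a call, 7 lost one and 28 changed sign. No gene called against vehicle lost its call under an alternative in which it was tested; the filter at 5 FPKM left 8 of the 10. The 7 lost calls are Cyp7b1 between the drugs: 6 single libraries, and no filter (adjusted p = 0.0879). Without bleomycin replicate 4, Nr1h2 was higher in bleomycin than IL-1β libraries (0.24, adjusted p = 0.0300).

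The sign changes were all in differences that passed neither as reported nor under the alternative. For Nr1h3 under bleomycin the difference was -0.0657 with median-of-ratios scaling, -0.0948 with quantile normalization, and between -0.0622 and 0.0521 without single libraries. For Ch25h under bleomycin the difference was 0.22 and, with quantile normalization, -0.00131. Median-of-ratios scaling and quantile normalization gave -0.0273 and -0.0347 for Rora between bleomycin and doxorubicin, -0.0164 and -0.0296 between bleomycin and IL-1β, and 0.0109 and 0.00511 between doxorubicin and IL-1β. For Abca1 between the drugs they gave -0.000460 and -0.000526, and for Nr1h2 between doxorubicin and IL-1β 0.00658 and 0.0601. Without single libraries these ranged from -0.0825 to 0.0637 for Rora between the drugs, -0.0853 to 0.0609 between bleomycin and IL-1β, -0.0402 to 0.0346 between doxorubicin and IL-1β, and -0.0987 to 0.0469 for Nr1h2 there.

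The filter at 5 FPKM left 2 of the 7 oxysterol genes, of which 1 changed in each comparison. Of all 7, 3 changed under each drug with quantile normalization. Without single libraries, 2 to 5 of them changed under doxorubicin (2 without doxorubicin replicate 4 and 3 without doxorubicin replicate 2). Partner genes changed under doxorubicin numbered 2 with no filter and 2 to 4 without single libraries (2 without vehicle replicate 3 or 4). The ROR and clock genes changed under IL-1β numbered 2 with no filter or with only the groups compared, and 2 to 4 without single libraries (2 without vehicle replicate 3). Beyond the smaller number tested at 5 FPKM, the cause was not tested.

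Replicate numbers were not treated as pairs, since nothing in the labels says what they mark. Correlations of deviations between same-numbered libraries ran from -0.02 to 0.21 (median 0.05), and 6 of 24 were over 0.1. Between different-numbered libraries the median was -0.02 and 0 of 72 were over 0.1, a hint from the data and not from the design. With the replicate number as a block, 6209, 6441 and 5735 genes changed under bleomycin, doxorubicin and IL-1β, where 6086, 6262 and 5574 did without it. Under the block, Mylip under bleomycin (adjusted p = 0.0185) and Cyp7b1 under doxorubicin (adjusted p = 0.0364) passed as well. In each comparison, 1 to 3 of 4 libraries correlated best with their own number.

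FPKM carry no counts, so levels under 1 FPKM, as for Ch25h and Abcg1 in vehicle libraries, rest on few fragments.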
